A study of Mus musculus with 6 samples.

Results

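Prostaglandins are short-lived lipid signals, and the 10 genes described here make them, break them down or sense them on the cell surface. They were taken by symbol from the gene list that all libraries share, which holds 32285 features. Ptgs1 and Ptgs2 encode the cyclooxygenases. Ptges, Ptges2, Ptges3 and Ptgds encode terminal synthases, Hpgd encodes the main inactivating enzyme, and Ptger2, Ptger3 and Ptger4 encode receptors for prostaglandin E2 (PGE2). Each symbol was found once, and a total of 73 UMIs of Ptger2, the scarcest, was counted over all analysed cells.

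The study followed hair follicles (HFs) of mouse dorsal skin after depilation, a removal of hair that starts a new growth cycle from the resting stage (telogen). Wildtype FVB males at postnatal days 55 to 57 were shaved and waxed, and the labels give this treatment for every time point, 0 h included. Skin was taken at 0, 4 and 16 h and on days 2, 4 and 6 (2 d, 4 d and 6 d), digested with enzymes and profiled by 10x Genomics 3′ single-cell RNA-seq, which counts each captured RNA molecule once by its unique molecular identifier (UMI). Each time point is 1 library that mixes equal cell numbers of 2 mice, so the mice cannot be told apart, no test between 2 time points can be made, and time cannot be told apart from the library.

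The libraries held 7307 to 13878 barcodes and 72634390 to 112370376 UMIs. After the filters 50502 of 61031 barcodes remained, 6520 to 11032 per library, with a median of 6036.5 UMIs per cell at 4 d and up to 10531 at 16 h. Pairs of libraries shared 7 to 47 barcodes. Cells were clustered without the 10 genes, and the clusters were named from marker genes as 18 "like" types: basal (IFE.B) and 2 suprabasal groups (IFE.SB1, IFE.SB2) of the interfollicular epidermis (IFE), basal and suprabasal upper HF (uHF.B, uHF.SB), outer bulge (OB1, OB2, OB3), inner bulge (IB), inner root sheath (IRS1, IRS2, IRS3), sebaceous gland (SG), melanocyte, dermal papilla (DP) and fibroblast, Langerhans, T cell, and a lymphocyte group with Icos and Il7r. These names rest on the markers only. The 10 leading genes of the uHF.SB-like cluster, for example, held 3 markers of its own list and 2 of another. The IFE.SB1-like cluster had 5 markers of its list raised, but the list's mean log2 difference from all other cells was -0.15. The IFE.B-like cluster had 8 raised, but 0 of them among its 10 leading genes.

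A level below is a UMI count on the counts-per-million scale (CPM), taken over all cells of 1 type in 1 library with at least 20 such cells. There were 93 such sums, and 12 cell types had all 6 libraries. Each level carries an exact Poisson 95% interval. Each share of cells with a UMI was taken over cells with at least 2000 UMIs, thinned to 2000, and shallower cells were left out. This kept 391 of 781 T cell-like cells at 2 d and 29 of 89 melanocyte-like cells at 4 h. Median depths printed beside shares are those of all cells of the type. The intervals and the limits set by a count of 0 cover counting error only, not the spread between mice. A mean ± SD over libraries spans the 6 time points, so its SD holds any change over time.

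As background, cyclooxygenases turn arachidonic acid, freed from membranes by phospholipases, into an unstable precursor that the terminal synthases convert to PGE2, prostaglandin D2 (PGD2) and related lipids. Ptgs1 is known as the form that many cells express steadily, and Ptgs2 as the form induced by injury and inflammation. PGE2 acts on neighbouring cells through the receptors EP2 and EP4, which raise cyclic AMP, and EP3, which mostly lowers it. In skin these lipids are known for roles in inflammation, wound repair, pigmentation and hair growth.

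The promoter windows below, from 250 bases before to 50 bases after the start of each gene, are shown for Ptgs1 and Ptgs2 because the cyclooxygenases had opposite distributions between skin layers, for Ptgds as the gene of narrowest distribution and for Hpgd as the inactivating enzyme. They come from RefSeq on GRCm38.p6, where all 10 genes had a window. The start is that of RefSeq, and all motif positions count from it. For several genes, Hpgd and Ptgds among them, it differs from the gene positions listed further below. Capitals mark the matches to 6 motifs searched on both strands: the TATA box (TATAAA), CRE (TGACGTCA), AP-1 (TGANTCA), the E-box (CACGTG), the CCAAT box and the NF-kB motif.
Ptgs1, chr2:36230176-36230475, + strand: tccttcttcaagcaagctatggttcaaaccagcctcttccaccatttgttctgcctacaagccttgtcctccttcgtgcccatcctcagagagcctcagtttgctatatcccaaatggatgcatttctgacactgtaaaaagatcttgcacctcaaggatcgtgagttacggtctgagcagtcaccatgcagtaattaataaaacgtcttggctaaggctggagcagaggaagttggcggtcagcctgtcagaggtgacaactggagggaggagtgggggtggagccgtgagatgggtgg
Ptgs2, chr1:150099781-150100080, + strand: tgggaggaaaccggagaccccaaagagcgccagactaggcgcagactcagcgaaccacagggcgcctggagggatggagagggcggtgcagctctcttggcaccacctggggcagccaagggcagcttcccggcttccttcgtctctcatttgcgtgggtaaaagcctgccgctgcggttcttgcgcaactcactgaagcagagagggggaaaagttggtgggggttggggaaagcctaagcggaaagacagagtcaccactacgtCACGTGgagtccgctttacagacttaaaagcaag
Ptgds, chr2:25469700-25469999, - strand: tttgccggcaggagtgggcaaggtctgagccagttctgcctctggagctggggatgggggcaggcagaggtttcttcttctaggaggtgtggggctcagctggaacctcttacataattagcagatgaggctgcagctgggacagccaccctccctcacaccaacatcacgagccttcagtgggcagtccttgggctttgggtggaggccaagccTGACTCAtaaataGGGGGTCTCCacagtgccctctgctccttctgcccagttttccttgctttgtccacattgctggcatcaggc
Hpgd, chr8:56294302-56294601, + strand: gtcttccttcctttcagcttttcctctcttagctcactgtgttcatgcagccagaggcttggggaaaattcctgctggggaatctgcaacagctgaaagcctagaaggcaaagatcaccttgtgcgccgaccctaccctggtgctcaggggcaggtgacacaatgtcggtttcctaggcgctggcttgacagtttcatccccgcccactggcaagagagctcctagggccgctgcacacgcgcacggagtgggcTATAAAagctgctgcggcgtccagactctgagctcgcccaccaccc

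The Ptgs1 window held none of the 6 motifs. The Ptgs2 window held an E-box whose first base lies at position 17 after the start. In the Ptgds window an AP-1 match began 35 bases and an NF-kB match 22 bases before the start, and in the Hpgd window a TATA box began at position 5 after the start. Among the remaining members Ptges2 had an E-box 77 bases, Ptger4 a CCAAT box 75 bases and Ptger2 a CCAAT box 160 bases before the start. Of all 32851 windows of this length, 13.6% held the TATA box, 1.79% the CRE, 7.81% AP-1, 7.15% the E-box, 37.4% the CCAAT box and 4.51% the NF-kB motif. A match is a run of letters and not a measured binding site, and no element outside these windows was searched.

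The genes themselves (GRCm38, the build called mm10) lie on several chromosomes. Ptgs1 (ENSMUSG00000047250) is at chr2:36230426-36252272, Ptges (ENSMUSG00000050737) at chr2:30889471-30929863, Ptges2 (ENSMUSG00000026820) at chr2:32395896-32405772 and Ptgds (ENSMUSG00000015090) at chr2:25466709-25470046, so that 4 of the 10 share chromosome 2. Ptgs2 (ENSMUSG00000032487) is at chr1:150100031-150108227, Ptges3 (ENSMUSG00000071072) at chr10:128058954-128077272 and Hpgd (ENSMUSG00000031613) at chr8:56294585-56321043. The receptor genes Ptger2 (ENSMUSG00000037759), Ptger3 (ENSMUSG00000040016) and Ptger4 (ENSMUSG00000039942) are at chr14:44988195-45003820, chr3:157566892-157645888 and chr15:5206661-5244187. Ptger2 overlaps the antisense gene Gm17173 and Ptger4 overlaps Ttc33 on the other strand, and both neighbours were counted as genes of their own.

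The 10 genes were highest in different cells. Ptgs1 was highest in suprabasal keratinocytes and Langerhans-like cells, and Ptgs2 in basal IFE-like, outer bulge-like and inner bulge-like cells. Ptges was highest in the IFE, Ptgds in melanocyte-like cells and Hpgd in basal upper HF-like cells. Ptger3 was highest in immune and dermal cells, and Ptger4 in IRS1-like and basal upper HF-like cells. Ptges2 and Ptges3 were counted in all 18 types. The map of mean levels shows these distributions side by side.

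**Figure D1:**
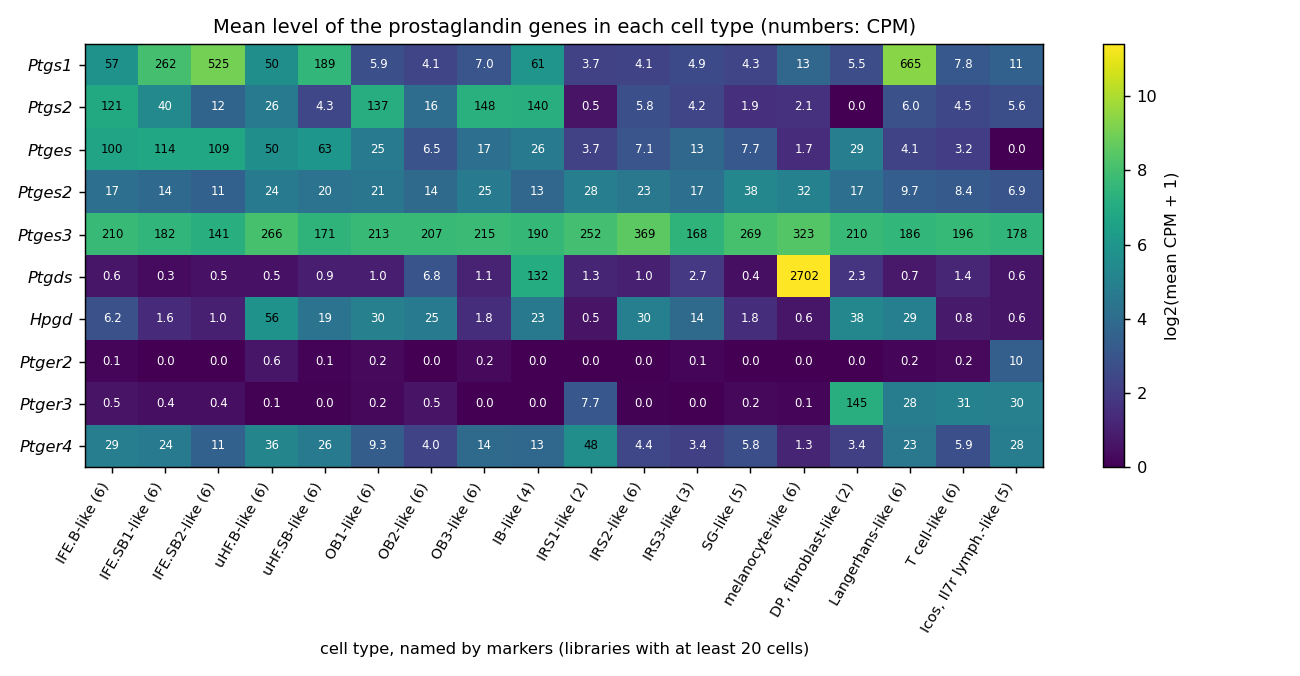
Mean level of each of the 10 genes (rows) in each cell type (columns), printed as CPM and coloured by log2(mean CPM + 1), with the number of libraries that hold at least 20 cells of the type in parentheses. Ptgds stands at 2702 CPM in melanocyte-like cells, and Ptgs1 at 665 CPM in Langerhans-like and 525 CPM in IFE.SB2-like cells.

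Ptgs1, the cyclooxygenase known for steady expression, followed differentiation of the epidermis. In IFE.B-like cells it stood at 42.2, 111, 52.6, 53.8, 24.7 and 57.4 CPM from 0 h to 6 d, in IFE.SB1-like cells at 194, 403, 329, 253, 173 and 217 CPM, and in IFE.SB2-like cells at 501, 669, 653, 527, 422 and 379 CPM. In all 6 libraries the order was IFE.SB2 above IFE.SB1, and IFE.SB1 above uHF.SB. The upper HF repeated the layering, with 39, 168, 44.9, 28.9, 6.26 and 10.5 CPM in uHF.B-like cells and 154, 376, 248, 150.1, 96.2 and 106 CPM in uHF.SB-like cells. At 4 d the basal cells of the upper HF were down to 52 UMIs of Ptgs1, with an interval of 4.67 to 8.2 CPM.

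Langerhans-like cells, the antigen-presenting cells of the epidermis, held the highest mean of Ptgs1, 665 ± 158 CPM (SD, n = 6 libraries), with 433, 621, 835, 852, 662 and 589 CPM over time. After thinning, 57.9% to 79.1% of them had a Ptgs1 UMI (median depth 4139 UMIs per cell), against 0.261% to 4.35% of T cell-like cells (median depth 2190.5), which serve as the background for free RNA. The range over libraries overlapped that of IFE.SB2-like cells, and Langerhans-like cells were higher in 4 of 6 libraries. In the outer bulge the level was far lower. OB1-like cells ranged from 0.903 to 12.4 CPM and held 90 UMIs in all, and their thinned shares were 0.253% to 1.69% (median depth 5133). The upper end of the T cell-like range came from the 2 d library, and in the other 5 libraries it was 0.261% to 1.4%, so the shares of OB1-like cells were close to the background. Inner bulge (IB)-like cells differed from these. They had no Ptgs1 UMI at 0 h in 20 cells and stood at 113 CPM at 4 h (70 UMIs), 96.8 at 16 h (76 UMIs) and 33.6 at 6 d (23 UMIs).

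Ptgs2, the inducible cyclooxygenase, had the opposite layering and its highest levels in the bulge at 4 h. In OB1-like cells, the Cd34 and Krt24 group that holds HF stem cells, the levels were 80.7, 460.1, 227, 25, 11.3 and 16.6 CPM from 0 h to 6 d, with an interval of 431 to 491 CPM for the 4 h value. In OB3-like cells it was 12, 614, 238, 15.5, 4.23 and 3.88 CPM, from 4, 162, 98, 6, 3 and 4 UMIs. In both groups the 4 h and 16 h libraries lay above all later ones without overlap of their intervals. OB2-like cells held 72.6 CPM at 4 h from 34 UMIs, and between 0 and 8.84 CPM at the other time points. IB-like cells had no Ptgs2 UMI at 0 h in 20 cells and stood at 347 CPM at 4 h, 213 at 16 h and 1.46 at 6 d.

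Part of the bulge cells carried most of this Ptgs2. At 4 h, 195 of 463 OB1-like cells had a Ptgs2 UMI and 1 cell held 32. The tenth of OB1-like cells with the most Ptgs2 carried 63.2% of its UMIs at 4 h and 69.7% at 16 h. Thinned shares followed the levels, with 6.76%, 32.8%, 20.3%, 3.95%, 1.52% and 2.09% of OB1-like cells from 0 h to 6 d (median depth 5133 UMIs). T cell-like cells were at 0% to 1.23% (median depth 2190.5), so the shares at 4 d and 6 d in OB1-like cells were close to the background.

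In the IFE the same gene peaked later. IFE.B-like cells held 92.6, 62.5, 184, 201, 116 and 70.3 CPM of Ptgs2, so that 4 h was the lowest and 2 d the highest time point. IFE.SB1-like cells were lower but had the same order of lowest and highest, with 20.8, 12.5, 45.5, 97.3, 42.6 and 21 CPM. At 4 h, then, OB1-like cells stood at their highest and IFE.B-like cells at their lowest value. Basal upper HF-like cells lay between these patterns, with 21.9, 55.4, 41.8, 23.9, 5.29 and 5.87 CPM, highest at 4 h like the bulge. Melanocyte-like cells had 2 UMIs of Ptgs2 in all.

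Within the IFE.B-like cells Ptgs2 was uneven. A finer clustering, also made without the 10 genes, split them into a group with Mmp3, Epgn and Nrg1 among its leading genes and a remaining group. The first held 132, 74.4, 309, 284, 150.2 and 85.9 CPM of Ptgs2 from 0 h to 6 d and the second 48.9, 51.1, 104, 112, 61.4 and 48.3 CPM, so the first was higher in all 6 libraries. At 16 h, 1421 of 3231 IFE.B-like cells had a Ptgs2 UMI, and the tenth with the most carried 61.1% of them.

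**Figure D2:**
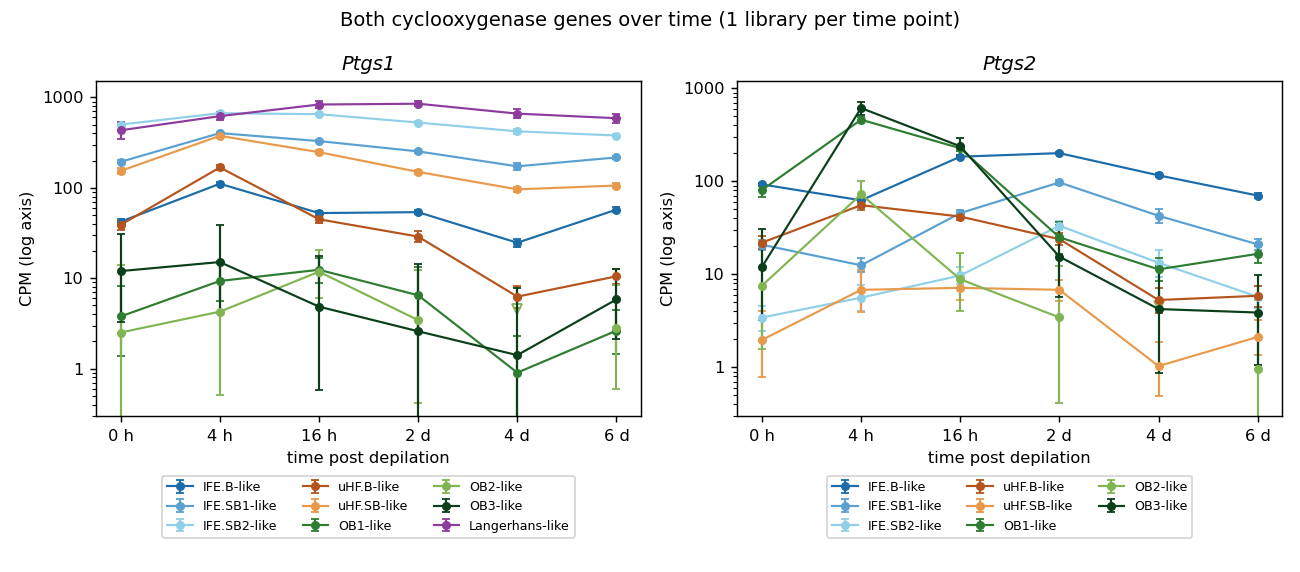
Levels of Ptgs1 (left) and Ptgs2 (right) in CPM on a log axis at each time point post depilation, with exact Poisson 95% intervals as bars, 1 line per cell type, and open triangles at the limit that a count of 0 allows. Ptgs2 stands at 460.1 CPM in OB1-like and 614 CPM in OB3-like cells at 4 h, whereas IFE.B-like cells reach 201 CPM at 2 d.

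Immediate early and heat shock genes are known to respond to tissue digestion, so their level was set beside that of Ptgs2. The summed level of Fos, Fosb, Jun, Junb, Egr1, Ier2, Atf3, Dusp1, Hspa1a and Hspa1b in OB1-like cells was 31241, 13446, 12215, 7994, 14573 and 16899.8 CPM from 0 h to 6 d. Its highest value was at 0 h, when Ptgs2 was at 80.7 CPM, and at 4 h, when Ptgs2 was highest, the sum was lower than at 0 h, 4 d and 6 d. In IFE.B-like cells the sum was also highest at 0 h (25671 CPM) and lowest at 2 d (13206 CPM), the time point at which Ptgs2 was highest. In OB3-like cells the sum was 29205, 13494, 10623, 7941, 10312 and 10173 CPM, so that at 4 h, when Ptgs2 was highest there, it lay below 0 h and above all later time points. The part of these genes' response in the level of Ptgs2 was not tested.

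Among the terminal synthases, Ptges encodes the inducible membrane-bound PGE2 synthase that commonly works with Ptgs2. Its level was 99.8 ± 45.5 CPM in IFE.B-like, 114 ± 76.4 in IFE.SB1-like, 109 ± 128 in IFE.SB2-like, 62.8 ± 54.3 in uHF.SB-like and 50 ± 24.1 in uHF.B-like cells (SD, n = 6 libraries each). The 4 h library set these SDs. At 4 h the IFE.SB2-like level was 369.9 CPM and at the other time points it was 52.3 to 62.5, and in IFE.SB1-like cells it was 265 CPM at 4 h against 54.7 to 116 at the others. IFE.B-like cells held 109.8, 179, 50.3, 66.7, 82.3 and 111 CPM, with the highest value at 4 h and the lowest at 16 h.

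Ptges and Ptgs2 thus had different time courses in the same cells. In IFE.B-like cells 4 h was the lowest time point of Ptgs2 and the highest of Ptges, and in OB1-like cells, where Ptgs2 was highest at 4 h, Ptges stayed between 20.1 and 35 CPM. Cell by cell, after thinning, a Ptges UMI was found in 23.8%, 24.9%, 9.7%, 11.7%, 15.5% and 20.6% of IFE.B-like cells with a Ptgs2 UMI from 0 h to 6 d, and in 16.8%, 30%, 9.18%, 11.3%, 13.5% and 18.3% of those without. The share was higher in the cells with Ptgs2 in 5 of 6 libraries and lower at 4 h. In OB1-like cells it was 4.35% of 138 cells with Ptgs2 and 4.24% of 283 without at 4 h. At the other time points it was lower in the OB1-like cells with Ptgs2, which numbered 7 to 93. These differences were not tested. Thinned shares for Ptges reached 43.8% in IFE.SB2-like cells (median depth 32011 UMIs) and were 0% to 1.23% in T cell-like cells (median depth 2190.5).

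Ptges3 encodes p23, a co-chaperone of heat shock protein 90 that is also assigned a cytosolic PGE2 synthase activity, and Ptges2 encodes a second membrane-associated synthase. Ptges3 was present in each cell type, from 141 ± 46.3 CPM in IFE.SB2-like to 369 ± 154 CPM in IRS2-like cells (SD, n = 6 libraries each). Its highest level was at 4 h in 9 of 12 cell types, where 18% to 41.8% of all genes were highest, depending on the type. Its lowest level was at 0 h in 9 of 12, where 13.2% to 40.5% of all genes were lowest. IFE.B-like cells held 122, 409, 207, 203, 159 and 160.3 CPM and OB1-like cells 99.6, 335, 262, 192, 217 and 174 CPM, so both keratinocyte groups were more than 3-fold higher at 4 h than at 0 h. Ptges2 had means of 6.89 to 38.1 CPM over the 18 types. It was lowest at 0 h in 9 of 12 types and highest in SG-like cells (31.9 to 45.4 CPM).

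Ptgds encodes the lipocalin-type synthase that makes PGD2. Of all its UMIs, 97.2% came from melanocyte-like cells, the pigment cells, where the level was 549, 1409, 568, 879.7, 7638 and 5170.3 CPM from 0 h to 6 d (42, 229, 89, 273, 12673 and 2017 UMIs). The 4 d and 6 d libraries lay above the 4 earlier ones without overlap of their intervals. Among thinned melanocyte-like cells (median depth 3210), 45.2% to 90.5% had a UMI, against 0% to 1.83% of T cell-like cells (median depth 2190.5). The markers of these cells moved in the same libraries, with Dct at 2457 CPM at 0 h and 10480.0 at 4 d, Pmel at 549 and 8977, and Mlana at 288 and 4655. Of 7 melanocyte markers, 5 were highest at 4 d, Kit at 6 d (713 CPM) and Mitf at 16 h (759 CPM), and their part in the level of Ptgds was not tested.

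Outside the melanocyte-like cells Ptgds was rare. In OB2-like cells, the next in order among the 12 types with 6 libraries, it ranged from 2.85 to 17.1 CPM, without overlap with melanocyte-like cells. IB-like cells, with 4 libraries, were higher in the mean (132 CPM) through the 0 h library, which held 74 UMIs in 17 of 20 cells and at most 12 in 1 cell. This gave 473 CPM with an interval of 371 to 593, which overlapped that of melanocyte-like cells at 0 h (396 to 742), while the same 20 cells held 19 UMIs of the 7 melanocyte markers together. At 4 h IB-like cells stood at 35.4 CPM (22 UMIs in 6 of 113 cells), at 16 h at 3.82 and at 6 d at 16.1 CPM. The low counts of IFE.B-like cells (39 UMIs at 4 d and 0 to 6 at the other time points) and T cell-like cells (10 UMIs at 4 d and 0 to 1 at the others) were also highest at 4 d, the library in which melanocyte-like cells held the most. The part of free RNA in these counts was not tested.

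Hpgd encodes the dehydrogenase that inactivates PGE2. Among the 12 types with 6 libraries it was highest in uHF.B-like cells, 55.5 ± 25.2 CPM, followed by OB1-like (30.5 ± 27.6), IRS2-like (29.5 ± 23.2), Langerhans-like (29.3 ± 19.4) and OB2-like cells (25.3 ± 13.2 CPM; SD, n = 6 libraries each), whose ranges overlapped. DP and fibroblast-like cells, measured at 4 d and 6 d only, stood at 41 and 34.9 CPM. OB3-like cells had only 4 UMIs in all. The 4 h library was the lowest for 6 of 9 cell types, against 13.6% to 36.4% of all genes in the 12 types. The 16 h library was the highest for 6 of 9, against 11.4% to 21.1% of all genes. Hpgd levels were 77, 17.6, 82.9, 60.6, 60.9 and 33.8 CPM in uHF.B-like cells and 84.5, 10.3, 33.4, 17.6, 22.6 and 14.5 CPM in OB1-like cells.

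The 4 h library thus held the lowest Hpgd levels of uHF.B, OB1, OB2 and IRS2-like cells. In IRS2-like cells it was 3.33 CPM at 4 h (1 UMI in 40 cells, interval 0.0843 to 18.5) and 71.5 at 16 h. The OB2-like level at 4 h, 4.27 CPM, rested on 2 UMIs (interval 0.517 to 15.4). Thinned shares of uHF.B-like cells with Hpgd ran from 2.85% at 4 h to 14.7% at 16 h (median depth 7268 UMIs), against no cell among the melanocyte-like cells (median depth 3210), which held 3 UMIs of Hpgd in all before thinning.

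The receptors differed in kind of cell. Ptger4 encodes EP4 and was found mainly in keratinocytes, with means of 35.5 ± 18.6 CPM in uHF.B-like, 28.7 ± 9.34 in IFE.B-like, 25.8 ± 15.3 in uHF.SB-like and 23.8 ± 7.95 in IFE.SB1-like cells (SD, n = 6 libraries each). It was also found in IRS1-like cells, which had enough cells only at 4 d and 6 d (40.6 and 55.7 CPM), in Langerhans-like cells (22.6 ± 12.1 CPM, n = 6) and in the lymphocyte-like group at 4 d (70 CPM, 24 UMIs). Ptger4 was lowest at 4 h in 8 of 10 cell types, against 13.6% to 36.4% of all genes in the 12 types with 6 libraries. IFE.B-like cells held 35.5, 13.9, 27.7, 22.9, 39.6 and 32.8 CPM and uHF.B-like cells 71.3, 16.9, 32.9, 26.8, 34.8 and 30.4 CPM. Shares ranged from 3.33% to 12.1% of thinned uHF.B-like cells (median depth 7268), against 0% to 0.415% of melanocyte-like cells (median depth 3210). OB1-like cells, at 6.02 to 13 CPM, showed no such dip. OB3-like cells ranged from 4.23 to 35.9 CPM, highest at 0 h (12 UMIs). IB-like cells held 6.39, 28.9, 15.3 and 1.46 CPM at 0 h, 4 h, 16 h and 6 d.

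**Figure D3:**
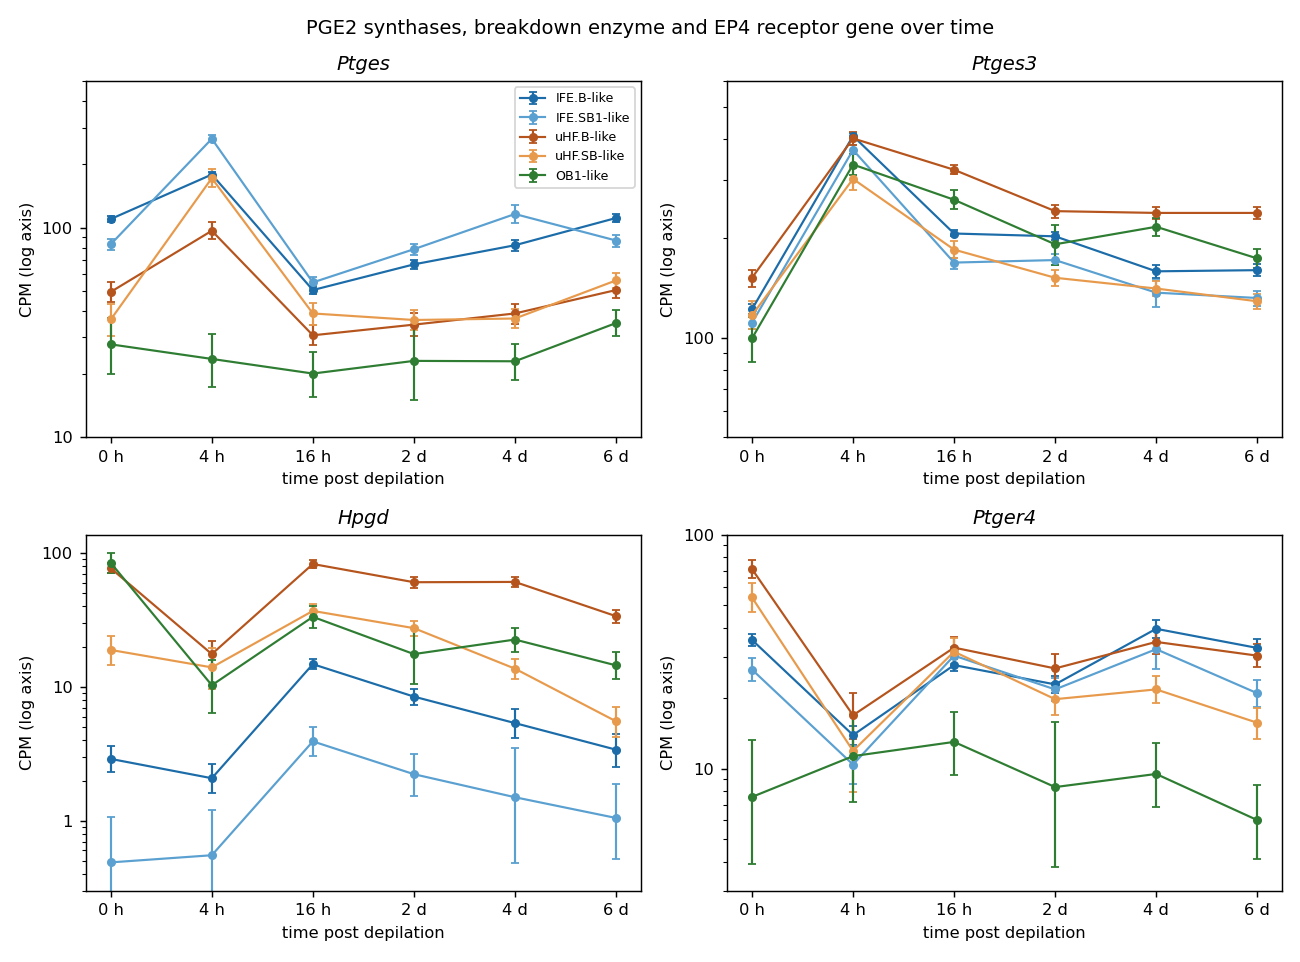
Levels of Ptges, Ptges3, Hpgd and Ptger4 in CPM on log axes in 5 keratinocyte types at each time point, with exact Poisson 95% intervals. At 4 h Ptges and Ptges3 stand high in IFE.B-like cells (179 and 409 CPM) while Hpgd and Ptger4 stand low in uHF.B-like cells (17.6 and 16.9 CPM).

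Ptger3 encodes EP3 and was low in most keratinocytes. T cell-like cells, which in mouse epidermis are mostly dendritic epidermal T cells, held 18.2, 23.6, 58.9, 19.9, 52.5 and 14.5 CPM, and Langerhans-like cells 20.1, 7.09, 39.2, 30.5, 51.1 and 16.9 CPM. The ranges of both overlapped each other, and among the 12 types with 6 libraries neither overlapped that of the next, IFE.B-like cells (0.133 to 2.08 CPM). IRS1-like cells, measured at 4 d and 6 d only, lay above the IFE.B-like range with 5.66 CPM (11 UMIs) and 9.69 CPM (4 UMIs), the latter within the Langerhans-like range. The highest levels were in DP and fibroblast-like cells, with 185 CPM at 4 d (81 UMIs) and 105 CPM at 6 d (12 UMIs), the only libraries with at least 20 such cells, and in the lymphocyte-like group at 4 d (114 CPM, 39 UMIs). Since T cell-like cells express the gene they are no background for it, and in OB3-like cells, with no UMI in any library, the limit that a count of 0 allows was 2.91 to 11.4 CPM. In IFE.B-like cells 65 of the 93 UMIs of Ptger3 were from the 4 h library.

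Ptger2, the gene of EP2, could barely be measured. The lymphocyte-like group with Icos and Il7r held 3 UMIs at 2 d (21.3 CPM, interval 4.38 to 62.1), 2 at 4 d (5.83 CPM) and 4 at 6 d (23.1 CPM, interval 6.29 to 59.1). Basal upper HF-like cells had 28 UMIs, between 0.241 and 1.25 CPM. With no UMI of Ptger2 in melanocyte-like, SG-like and OB2-like cells, it was not detectable there at this depth.

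**Figure D4:**
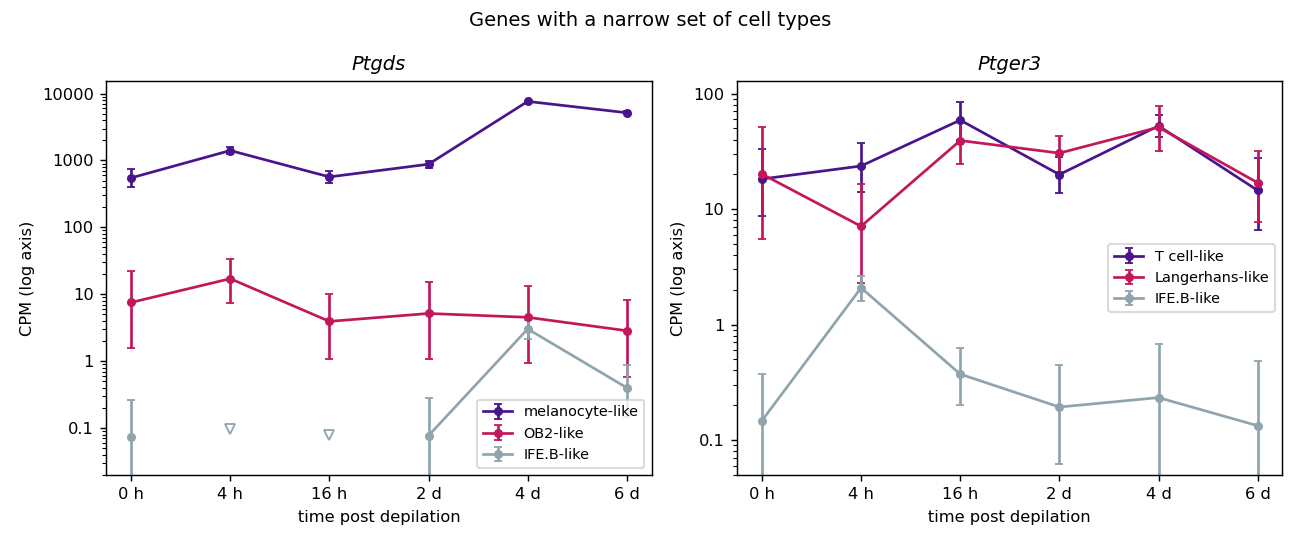
Levels of Ptgds (left) and Ptger3 (right) in CPM on log axes at each time point, with exact Poisson 95% intervals and open triangles at the limit that a count of 0 allows. Melanocyte-like cells hold 549 to 7638 CPM of Ptgds, and both immune types hold 7.09 to 58.9 CPM of Ptger3, against at most 2.08 CPM in IFE.B-like cells.

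To place the 4 h library among all genes, levels at 4 h were set against those at 0 h for genes with a mean of at least 5 CPM over both libraries. This mark and the 2-fold limit were chosen after the levels had been seen, and with 1 library per time point there is no replicate check. In IFE.B-like cells 3 of 6 genes were 2-fold or more higher (Ptgs1 2.63-fold, Ptges2 2.08-fold, Ptges3 3.35-fold), where 17.7% of all genes were, and Ptger4 was 2.56-fold lower, where 17.6% were. In uHF.B-like cells 4 of 7 were higher (Ptgs1 4.32-fold, Ptgs2 2.53-fold, Ptges2 2.11-fold, Ptges3 2.64-fold) against 19.8% of all genes, and Hpgd (4.38-fold) and Ptger4 (4.21-fold) were lower against 17.3%.

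In OB1-like cells 4 of 7 were higher (Ptgs1 2.47-fold from 6 and 19 UMIs, at shares close to the background, Ptgs2 5.7-fold, Ptges2 4.02-fold, Ptges3 3.37-fold) against 17.8% of all genes, and Hpgd was 8.19-fold lower against 20.5%. The 4 h library was itself extreme for many genes. Of 8915 genes in IFE.B-like cells, 36.9% were highest and 35.5% lowest at 4 h. Of 9632 genes in OB1-like cells, 23% were highest and 36.4% lowest at 4 h, while 28.2% were highest at 4 d.

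Differences between cell types could be tested, because the types came from the same 6 libraries, which serve as replicates. The counts were summed per library and type and fitted with edgeR's quasi-likelihood test with the library as a block, with p-values adjusted over all genes tested. The cells were grouped on other genes of the same cells, so these p-values are too small as tests of types and describe how stable a difference was between libraries.

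Suprabasal IFE-like cells (IFE.SB1 and IFE.SB2 summed) were compared with IFE.B-like cells. Of 9 members tested, 1 was higher and 3 were lower, with a median log2 fold change of -0.22, where 62.8% of 13488 genes were called with a median of -0.04. Ptgs1 was higher, at 349, 511, 441, 355, 286 and 293 CPM against the 42.2 to 111 CPM of basal cells, a log2 fold change of 3.01 ± 0.18 (SE, adjusted p = 2.2e-06, edgeR). Ptgs2 was lower, at 12, 9.7, 33.1, 73.5, 29.3 and 13.9 CPM against 62.5 to 201 CPM (-2.11 ± 0.19, adjusted p = 2.3e-05, edgeR). The cyclooxygenases were therefore called in opposite directions, each in 6 of 6 libraries.

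Hpgd was also lower in the suprabasal IFE-like cells (-1.90 ± 0.15, adjusted p = 7.8e-06, edgeR) in 6 of 6 libraries, but at the doubled clustering resolution, in which 2154 of 4635 uHF.SB-like cells took the IFE.SB name, the difference was -0.20 with an adjusted p of 0.319. Ptger4 was lower by a small amount (-0.46 ± 0.11, adjusted p = 0.0054, edgeR) in 6 of 6 libraries, and without the library block its adjusted p was 0.229. Ptges (0.18 ± 0.15), Ptges2 (-0.22 ± 0.09), Ptges3 (-0.14 ± 0.07), Ptgds (0.00 ± 0.87) and Ptger3 (-0.34 ± 0.46) did not pass the threshold, and Ptger2 had too few counts to test.

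In the upper HF the suprabasal against basal comparison gave 2 higher and 4 lower of 8 members tested (median log2 fold change -0.24), where 58.7% of 12313 genes were called. Ptgs1 was higher (2.62 ± 0.40, adjusted p = 0.00154, edgeR) and Ptgs2 lower (-2.19 ± 0.24, adjusted p = 2.3e-05, edgeR), each in 6 of 6 libraries, as in the IFE. Hpgd (-1.45 ± 0.23, adjusted p = 0.000711, edgeR) and Ptges3 (-0.49 ± 0.07, adjusted p = 8.7e-05, edgeR) were lower in 6 of 6 libraries. Without the library block the calls fell from 6 to 3, and Ptges3 (adjusted p = 0.168) was among those lost.

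The other calls of the upper HF were weak. Ptger4 (-0.33 ± 0.10, adjusted p = 0.0148, edgeR) lost its call without the 4 d library (adjusted p = 0.0634), without the 6 d library (0.06), at the doubled resolution (0.0629) and without the block (0.6). Ptgds (1.39 ± 0.53, adjusted p = 0.0405, edgeR) rested on 3, 0, 2, 1, 32 and 12 UMIs in uHF.SB-like against 0, 1, 0, 0, 17 and 5 in uHF.B-like cells and lost its call with DESeq2 (adjusted p = 0.055) and without the 0 h (0.0577), 16 h (0.0606), 2 d (0.0609) or 6 d library (0.112). Ptges was at 0.33 ± 0.13 with an adjusted p of 0.0516. It passed without the 0 h library (0.45, adjusted p = 0.00421), and at the doubled resolution it was lower in the remaining suprabasal cells (-0.89, adjusted p = 3.8e-05). Ptges2 did not pass (-0.16 ± 0.10), and Ptger2 and Ptger3 were not tested.

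**Figure D5:**
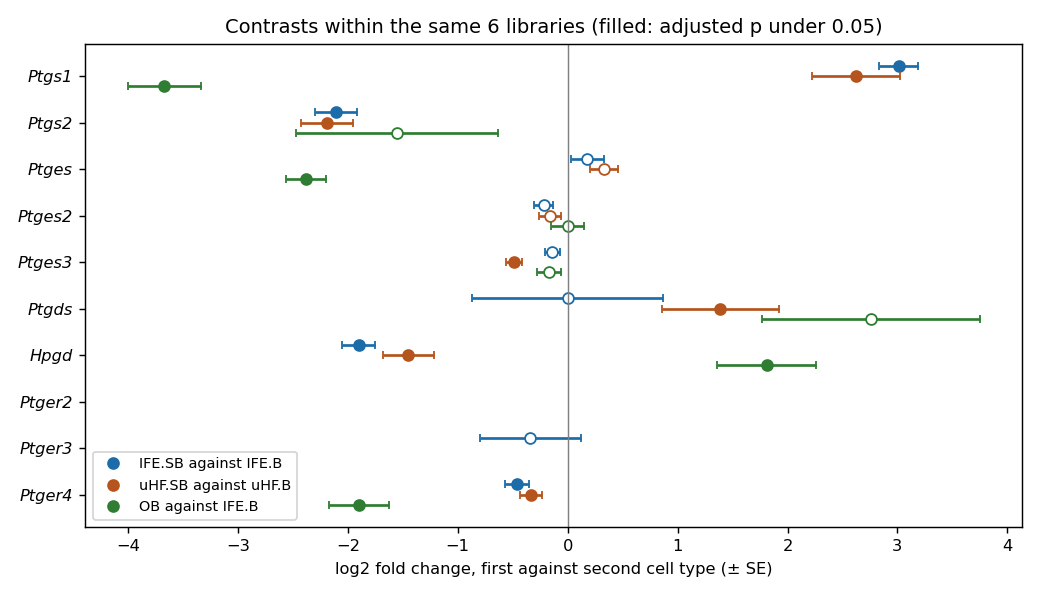
Log2 fold change ± SE (edgeR, n = 6 libraries) of each gene in suprabasal against basal IFE-like, suprabasal against basal upper HF-like and outer bulge-like against basal IFE-like cells, with filled points where the adjusted p is under 0.05 and no point where a gene had too few counts to test. Ptgs1 stands at 3.01 and 2.62 in both suprabasal comparisons and at -3.67 in the bulge.

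Outer bulge-like cells (OB1, OB2 and OB3 summed) were compared with IFE.B-like cells, both being basal keratinocytes. Of 8 members tested, 1 was higher and 3 were lower, with a median log2 fold change of -0.86, where 40.7% of 13030 genes were called with a median of -0.02. Ptgs1 was lower (-3.67 ± 0.33, adjusted p = 4.7e-05, edgeR), as were Ptges (-2.38 ± 0.18, adjusted p = 1.2e-05, edgeR) and Ptger4 (-1.90 ± 0.27, adjusted p = 0.000602, edgeR). Hpgd was higher in the bulge (1.81 ± 0.45, adjusted p = 0.012, edgeR), with 64.3, 8.67, 32.6, 16.1, 20.5 and 13.1 CPM against 2.9, 2.08, 14.8, 8.47, 5.37 and 3.4 CPM. Each of these 4 held its direction in 6 of 6 libraries.

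Ptgs2 did not pass in this comparison (-1.55 ± 0.92, adjusted p = 0.211, edgeR). The bulge-like cells stood at 58.2, 409, 180.4, 17.1, 9.13 and 12.6 CPM and the IFE.B-like cells at 92.6, 62.5, 184, 201, 116 and 70.3 CPM, so the bulge was higher at 4 h alone. Without the 4 h library Ptgs2 was lower in the bulge (-2.23, adjusted p = 0.0384). Ptgds was at 2.76 ± 0.99 (adjusted p = 0.0546, edgeR) and passed with DESeq2 (3.92, adjusted p = 0.000183) and without the 4 d library (4.10, adjusted p = 0.00679), from no more than 3.45 CPM in the bulge. Ptges2 (0.00 ± 0.15) and Ptges3 (-0.17 ± 0.11) did not pass, and Ptger2 and Ptger3 had too few counts.

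Change over time was tested in each of the 12 cell types with 6 libraries, by a smooth curve of hours (a spline with 3 degrees of freedom) that leaves 2 residual degrees of freedom among libraries. Of 120 pairs of gene and cell type, 62 had enough counts, and 1 was called with edgeR at an adjusted p under 0.05. It was Ptgds in melanocyte-like cells (adjusted p = 0.00247, edgeR), where 4.86% of 4401 genes were called. The straight-line part of its fitted curve, without the other terms, was a log2 change of 3.37 from 0 h to 6 d. This pair was also called by DESeq2 (adjusted p = 1.8e-06), but not on a scale of log2(hours + 1) (adjusted p = 0.502) or without the 16 h library (adjusted p = 0.16).

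In the remaining cell types no member was called by edgeR, and few genes were. The share called was 2.94% in IRS2-like, 0.0161% in Langerhans-like, 0.042% in T cell-like and 0% in IFE.B, IFE.SB1, IFE.SB2, uHF.B, uHF.SB, OB1, OB2 and OB3-like cells, where 75 of 12933 (IFE.B-like) to 658 of 10589 genes (OB1-like) had an unadjusted p under 0.05. Over all 62 pairs tested, 11 pairs had such a p, the melanocyte pair included. DESeq2 called 6 pairs, which were Ptgs2 in OB1, uHF.B and IFE.SB2-like cells, Ptgs1 in uHF.B-like cells and Ptgds in melanocyte and IFE.B-like cells. The share of all genes that DESeq2 called was not taken, so these 6 pairs cannot be set against it.

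Ptgs2 in OB1-like cells depended on how time was scaled. On the scale of hours the straight-line part of the fitted curve was -5.03 (log2, 0 h to 6 d). The adjusted p of all terms was 0.135 (edgeR, unadjusted p = 0.00157). The straight-line part leaves out the other terms of the curve and is not the difference between the measured levels, which were 80.7 CPM at 0 h and 16.6 CPM at 6 d. With log2(hours + 1) the adjusted p was 2.6e-06, by rank of the time points 2.7e-05 and with DESeq2 2.5e-05, all with the same direction. In OB3-like cells the straight-line part was -7.31, and the adjusted p of all terms was 0.613 (edgeR) and 3.8e-10 with log2(hours + 1). There the measured levels were 12 CPM at 0 h and 3.88 CPM at 6 d, from 4 UMIs each. When 1 library was left out, the straight-line part ranged from -5.15 to -3.84 in OB1-like cells, each from a fit with 1 residual degree of freedom.

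The genes whose levels ran most like each member over the 93 sums, by Pearson's r of log2(CPM + 1), are a description across sums that share libraries and cells. Ptgs1 ran with Pkib (r = 0.792), Ttc39b (0.770) and Il6ra (0.752), and Ptgs2 with Nrg1 (0.732), Anxa2 (0.722) and Itgb4 (0.692), the last a basal keratinocyte integrin. Ptges ran with Trim16 (0.820), Eppk1 (0.795) and Sh3rf2 (0.776). Ptges2 ran with Pole3 (0.811), Mrpl28 (0.750) and Gar1 (0.746), and Ptges3 with Lyar (0.883), Ranbp1 (0.875) and Gspt1 (0.859). Lyar and Gar1 take part in ribosome production and Ranbp1 in nuclear transport.

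For the narrow genes the list was led by genes of the same cells. Ptgds ran with Sox10 (0.889), Mlana (0.871) and Ednrb (0.866), all known from the pigment lineage, Mlana being a marker used to name these cells. Ptger2 ran with the cytokine genes Il17a (0.704) and Il17f (0.700) and with Pdcd1 (0.693), from few UMIs. Ptger3 ran with Spp1 (0.856), Grk3 (0.854) and Fli1 (0.837). The values were lower for Hpgd, with Cxcl12 (0.657), Ccl2 (0.636) and Il11ra1 (0.634), and for Ptger4, with Il1r1 (0.592), Pigg (0.566) and Slco3a1 (0.561).

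Of 36 other genes listed for the pathway, 35 were in the files and 23 reached a mean of 10 CPM in some cell type. In suprabasal against basal IFE-like cells, 14 of 24 tested were higher and 3 lower, in the upper HF 14 of 23 were higher and 2 lower, and in the outer bulge against basal IFE 3 of 21 were higher and 6 lower (edgeR, adjusted p under 0.05). Over all genes tested, 3994 were higher and 4470 lower of 13488 in the IFE, 3510 and 3722 of 12313 in the upper HF, and 2721 and 2578 of 13030 in the bulge. The median log2 fold change of the listed genes was 1.07, 1.11 and -0.10 in the same order, against -0.04, -0.02 and -0.02 over all genes. Phospholipases, which free arachidonic acid, were among those higher in the suprabasal IFE, with Pla2g2f at 4.57 on the log2 scale (adjusted p = 3.4e-07) and Pla2g4f at 3.28 (adjusted p = 3.7e-05). Pla2g2f reached 567 ± 68.1 CPM in IFE.SB2-like cells (SD, n = 6). Pla2g4a, the cytosolic phospholipase, was highest in OB1-like cells (66.3 ± 23.1 CPM, n = 6).

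Among the other synthases, Hpgds, the haematopoietic PGD2 synthase, was highest in Langerhans-like cells (1129 ± 285 CPM, n = 6) and was higher in suprabasal than basal IFE-like cells (log2 fold change 4.24, adjusted p = 1.1e-07, edgeR). The 2 PGD2 synthases thus had different leading cell types, melanocyte-like for Ptgds and Langerhans-like for Hpgds. Akr1c18 (523 ± 299 CPM) and Cbr1 (253 ± 96.1 CPM; SD, n = 5 libraries each), both reductases, led in SG-like cells. Ptgis, the prostacyclin synthase, had no UMI.

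Slco2a1, the transporter that takes prostaglandins up into cells, was highest in IFE.B-like cells (176 ± 80.4 CPM, n = 6). It was lower in the suprabasal IFE (-3.31, adjusted p = 3.3e-05), the suprabasal upper HF (-2.16, adjusted p = 2.3e-06) and the outer bulge (-2.19, adjusted p = 0.000119; all edgeR). Abcc4, an exporter of PGE2, was highest in Langerhans-like cells (98.2 ± 15.5 CPM, n = 6). Other receptors were scarce, with Ptgfr at 31.9 and 43.6 CPM in DP and fibroblast-like cells and Ptgdr, a PGD2 receptor gene, at 6.32 ± 3.23 CPM in uHF.SB-like cells (n = 6). Ptgdr was higher in the outer bulge than in the basal IFE (2.84, adjusted p = 0.0223, edgeR).

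The lipoxygenases, which use the same arachidonic acid for other lipids, also had separate places. Alox5 (282 ± 96 CPM), its partner Alox5ap (791 ± 179.9) and Ltc4s (1137 ± 144) were highest in Langerhans-like cells (SD, n = 6 libraries each), with no other type above 4.62 CPM in the mean. Alox12, Alox12b, Alox12e and Aloxe3 were higher in suprabasal than in basal cells of the IFE (log2 fold changes 7.34, 6.31, 6.56 and 3.69) and of the upper HF (2.95, 5.34, 3.26 and 2.47). Over time 1 pathway gene was called, Slco2a1 in IRS2-like cells, with a falling straight-line part of its fitted curve (adjusted p = 0.00767, edgeR).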

How the data were processed

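Dorsal skin cells of 6 time points (1 library each) were profiled by 10x Genomics 3′ single-cell RNA-seq. The authors deposited raw UMI counts per gene and barcode for each library, made with Cell Ranger 6.1.2 on mm10 per the submitters' processing notes. Counts were neither normalised nor pooled in the deposited files, and the number of columns left unused was 0. The 10 genes and all gene lists were chosen with earlier results of these data known.

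Barcodes with 500 to 7000 genes and at most 10% mitochondrial UMIs were kept (55177), and the highest scrublet doublet scores were removed at 0.8% per 1000 barcodes (4675 barcodes), since the caller's own threshold marked 0 barcodes in 4 of the 6 libraries. Cells were clustered with Seurat 5.3.0 (2000 variable genes, 30 components, resolution 0.2) without the 10 genes, the other pathway genes and the stress genes, first for the skin and then for the HF cells, and named from marker lists. As no annotation by the authors was used, names were rebuilt and may differ from the study's. UMI counts were summed per library and cell type and tested with edgeR 4.0.16 (quasi-likelihood test, TMM scaling, Benjamini-Hochberg adjustment over all genes tested, FDR 0.05), in R 4.3.3. The fits, checked first on simulated counts, used a spline of hours per cell type, or the library as a block between cell types. All 10 genes are named whatever their values, with the 3 genes of highest Pearson's r for each (mean of at least 5 CPM) and other pathway genes at 10 CPM or more. Alternatives were DESeq2 1.42.0, its size factors (RLE), no count filter, other scales of time, no library block, the doubled clustering resolution (0.4), no thinning and leaving out each library. Nothing in the labels says that libraries come from separate experiments, so p-values measure the spread between these 6 libraries only. In whole-library sums, fewer cells of a type and less RNA per cell cannot be told apart, and levels are therefore given per cell type. Total depth per library sets the precision given by the Poisson intervals.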

Additional observations from a re-analysis of the deposited data

How the results depend on the processing

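The count of 1 gene and cell type pair called over time was 4 on the log2(hours + 1) scale, 3 on the rank of the time point, 6 with DESeq2, 3 with no filter and 1 to 6 when 1 library was left out. Shares over all genes were taken for the main fits only, so counts under the alternatives have none beside them. The 6 members called between suprabasal and basal upper HF fell to 3 with no library block and were 4 to 6 when 1 library was left out. In the IFE and the outer bulge comparison the 4 called members were 4 to 5 when 1 library was left out. With no library block they were 3 in the IFE and 4 in the bulge, and at the doubled resolution also 3 and 4. Ptges in the upper HF turned from 0.33 to -0.89 at the doubled resolution, where 2154 of 4635 uHF.SB-like cells took the IFE.SB name. Without thinning, the mean share was taken over all cells, with more UMIs per cell by construction. It was 87.2% for Ptgs1 in Langerhans-like, 49.2% for Ptges in IFE.SB1-like and 84.2% for Ptges3 in IRS2-like cells. In uHF.B-like cells it was 25.4% for Hpgd, 0.487% for Ptger2 and 20.9% for Ptger4. Of 28 results on single genes, 16 kept their side of the threshold under every alternative run. They also kept direction, except for Ptgds in the IFE and Ptges2 in the outer bulge comparison, whose main value of 0.00 has no direction. When 1 library was left out, these ranged from -1.18 to 1.06 and from -0.06 to 0.09. The causes of the other changes were not tested. Ptger2 and, in keratinocytes, Ptger3 were limited by depth. No paired analysis was possible because each time point is 1 library; the library block above pairs cell types within libraries.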
